A study of Mus musculus with 8 samples.

Results

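A group of 10 cytokine signalling genes were examined for acetylation of histone H3 at their starts and in the surrounding chromatin of a mouse T cell precursor line. The group was chosen by name and holds the cytokine receptor genes *Il7r*, *Il2ra*, *Il2rb*, *Il2rg*, *Kit* and *Flt3*, the feedback inhibitor genes *Cish* and *Socs1*, and the transcription factor genes *Stat5a* and *Stat5b*. It makes up 10 of the 20924 protein-coding genes with a known strand on chromosomes 1 to 19 and X. Each gene was described over its body and 50 kb to either side of it, here called its window, in GRCm38 coordinates.

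Cytokines such as interleukin-7 and interleukin-2 bind receptor chains that carry Janus kinases, and the activated kinases phosphorylate STAT5 proteins, which then pair, enter the nucleus and bind DNA. Interleukin-7 signalling sustains early thymocytes, while the receptors for stem cell factor and for the FLT3 ligand are tyrosine kinases best known from earlier progenitors. STAT5 induces genes such as *Cish* and *Socs1*, whose products damp the same receptors. H3K27ac, an acetylated lysine of histone H3, is found at active promoters and enhancers.

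The study asked how the loss of IkE120, an enhancer upstream of *Ikzf1*, changes chromatin in P5424 cells, a mouse line of immature T cells. H3K27ac ChIP-seq was performed in wild-type (wt) P5424 cells and in ΔIkE120 P5424 cells, a clone with a homozygous CRISPR/Cas9 deletion of the enhancer, with 1 library per genotype and therefore no replicates. Whether the cells had been stimulated before ChIP was not given in the sources used here. The series has 8 samples in all, and the 4C-seq libraries were not used here.

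The wt list held 34553 peaks over 25189952 bases, with a median length of 603 bases and a median −log10 q-value of 4.12. The ΔIkE120 list held 29902 peaks over 22143580 bases, with a median length of 628 bases and a median −log10 q-value of 4.47. Fewer peaks were thus called in ΔIkE120 cells, and the covered bases of the whole list stood at 0.879 of those in wt cells, with a median fold enrichment of 3.16 in ΔIkE120 and 3.04 in wt peaks. Sequencing depth was not given in the sources used here, so the lists were compared by where peaks were called and how far they reached. Fold enrichments and −log10 q-values are printed as deposited, to place a peak within its own list, and a difference in them between the lists is not a measured difference in acetylation. The part of depth in any difference between the lists was not tested.

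The T cell label was checked against marker genes. All 14 T lineage markers, among them *Cd3e*, *Ptcra*, *Lck*, *Rag1* and *Bcl11b*, had a peak within 1 kb of the start in each list. The starts of the 6 myeloid and 4 natural killer markers, *Csf1r*, *Cebpa*, *Ncr1* and *Eomes* among them, held 0 peaks in each list. Of 6 B lineage markers, *Ebf1* alone had a start peak, which covered 464 bases in wt and 253 bases in ΔIkE120 cells, with −log10 q-values of 2.74 and 2.28. The starts of T lineage genes were thus marked in both genotypes.

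The 10 genes fell into 3 patterns that were shared by both genotypes. Acetylated starts were seen at *Il2rb*, *Il2rg*, *Kit*, *Socs1*, *Stat5a* and *Stat5b*, whereas *Il2ra* and *Flt3* had peaks in and around the gene but not at the start, and *Il7r* and *Cish* had no peak at the start, in the gene or close to it. For *Stat5b* the peak counted was that of the adjoining *Stat5a*, and a further peak covered a start listed inside the gene. In numbers, 6 of the 10 genes had a peak within 1 kb of the start in wt cells, against 45% of all genes, and 6 of the 10 in ΔIkE120 cells, against 44.3%. A start peak in wt cells alone was found at 0 of the 10 genes (1.12% of all genes), and a start peak in ΔIkE120 cells alone also at 0 (0.487%). *Il7r* was the 1 gene with 0 peaks in its window in both lists, which held for 25.2% of all genes.

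Over the windows, fewer bases lay under peaks in ΔIkE120 cells, and *Il2rb* showed the lowest ratio. Within 1 kb of the starts the genes went both ways, *Il2rb* from 944 bases in wt to 279 in ΔIkE120 cells and *Il2rg* from 907 to 1388. The 9 merged windows, in which the overlapping windows of *Stat5a* and *Stat5b* count as 1, span 1274202 bases. They held 86 peaks over 61067 bases in wt cells, with a mean fold enrichment of 2.84, and 62 peaks over 48783 bases in ΔIkE120 cells, with a mean fold enrichment of 3.04. The ratio of covered bases, ΔIkE120 over wt, was 0.799, below the 0.879 of the whole lists. The mean fold enrichments are over called peaks only, and over the peaks found in both lists they were 2.92 in wt and 3.06 in ΔIkE120 cells. Of the 9 genes with a peak in either list, 7 had fewer peaks in ΔIkE120 cells, against 45% of all 15660 such genes, 1, *Il2rg*, had more, against 17.6%, and *Kit* had equal numbers. These shares do not compare like with like, since windows with more peaks have more to lose. The median number of wt peaks per window was 11.5 for the 10 genes and 3 for all 20924 genes, with genes without any peak included in both. *Stat5a* and *Stat5b* are also counted separately here, although most of their peaks are the same.

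A difference of 1.5 fold in covered bases, among genes with at least 1000 covered bases in either list, stood in for a call. Of the 8 genes with that many bases, 1 was lower in ΔIkE120 cells, *Il2rb*, against 8.19% of all 14329 genes so examined, and 0 were higher, against 0.879%. The median ratio of the 8 genes was 0.825, from 0.425 to 0.992, and 7 of them lay below the median of all genes, which was 0.920 with quartiles of 0.817 and 1.01. The count of lower genes was near the share of all genes. With only the stronger peaks of each list, those whose −log10 q-value reached the list median, *Il2rb* had a ratio of 0.474 but fell short of 1000 covered bases, so that 0 genes passed. With a flank of 100 kb the ratio of *Il2rb* was 0.666. With ratios of 0.8 or less called lower, 3 of the 8 genes were, *Il2ra*, *Il2rb* and *Stat5a*, against 22.1% of all genes.

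Peaks called in 1 genotype alone made up most of the difference in covered bases. Of the 86 wt peaks, 60 overlapped a ΔIkE120 peak by at least 1 base, or 69.8% (95% exact binomial interval 58.9 to 79.2), against 74.4% of the whole wt list. Of the 62 ΔIkE120 peaks, 58 overlapped a wt peak, or 93.5% (84.3 to 98.2), against 86.4% of the whole ΔIkE120 list. The intervals cover the counting of peaks only. The 26 peaks called in wt cells alone had a median −log10 q-value of 2.51 and none exceeded 4.23, whereas the shared wt peaks had a median of 5.92. Over the whole wt list, too, peaks without a ΔIkE120 counterpart had the lower median, 2.15 against 5.79. The 4 peaks called in ΔIkE120 cells alone had a median of 1.28. Of the 12284 bases by which the lists differed, 9435 came from peaks of 1 list alone and 2849 from peaks found in both, for which the ratio was 0.944. Of the 36 wt peaks that reached the median −log10 q-value of their list, 35 overlapped a ΔIkE120 peak of any strength, against 97.3% of such peaks in the whole wt list. All 28 such ΔIkE120 peaks overlapped a wt peak, against 99.4% in the whole ΔIkE120 list, so stronger peaks had a counterpart of any strength here as elsewhere. With both lists cut at their medians, 69.4% of the wt peaks and 89.3% of the ΔIkE120 peaks overlapped, so not every counterpart was itself among the stronger peaks.

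**Figure D1:**
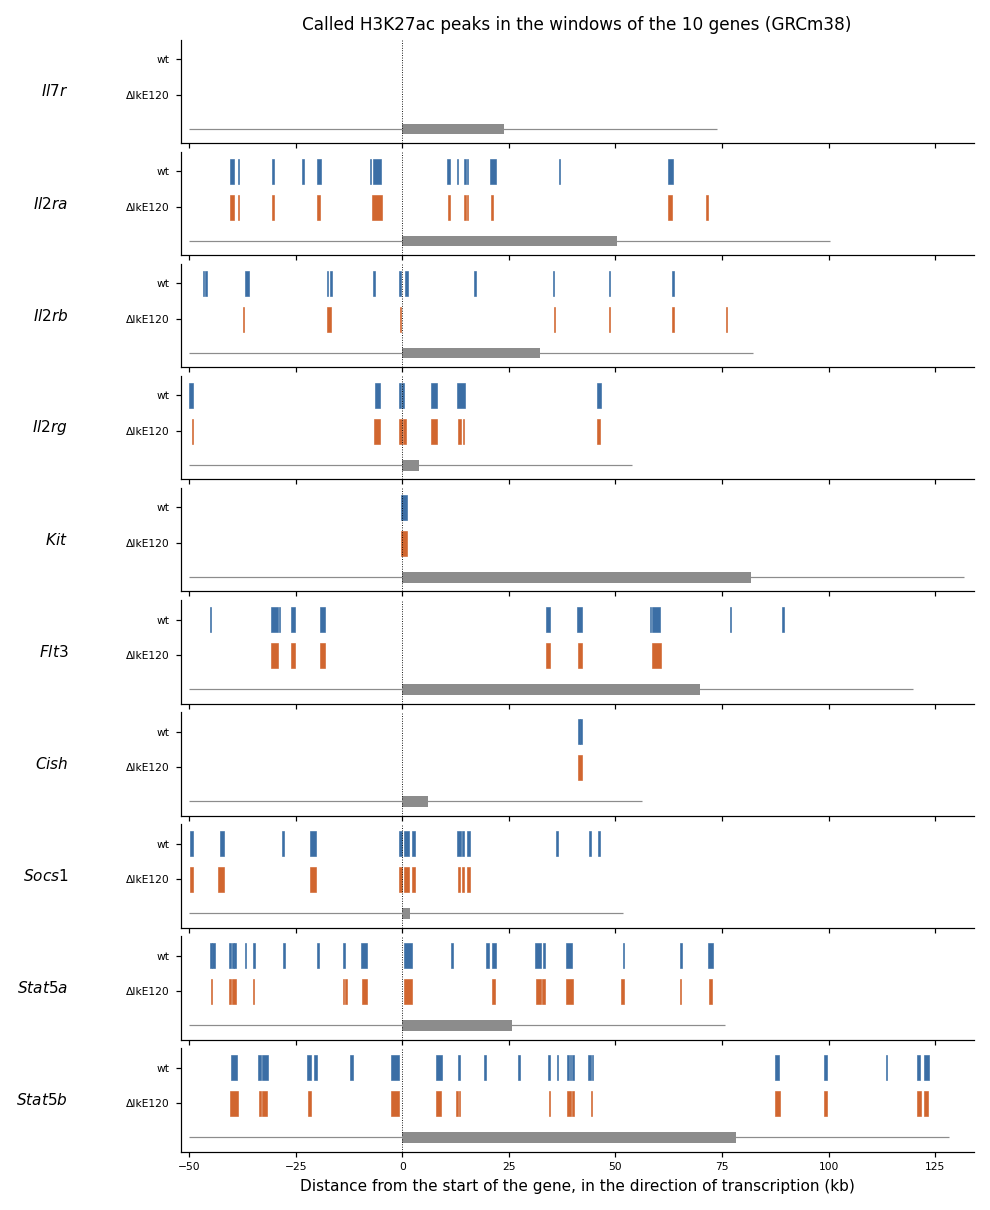
Called H3K27ac peaks in the windows of the 10 genes, in wt cells (blue) and ΔIkE120 cells (orange), by distance in kb from the start of each gene (dotted line) in the direction of transcription. Grey boxes are gene bodies and grey lines the windows. *Il7r* has 0 peaks, *Kit* has 1 peak at its start in each genotype, and the windows of *Stat5a* and *Stat5b* overlap, so that most of their peaks are drawn in both rows.

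Among the receptors that signal through STAT5, *Il7r* encodes the α chain that binds interleukin-7 and, in another receptor, thymic stromal lymphopoietin. Its body lies at chr15:9506159-9529941 on the minus strand, and its window of 123783 bases held 0 peaks in wt cells and 0 in ΔIkE120 cells. No called H3K27ac thus surrounded this receptor gene in either genotype.

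*Il2ra* encodes the α chain that raises the affinity of the interleukin-2 receptor, and lies at chr2:11642792-11693194 on the plus strand. Its window held 14 peaks over 9280 bases in wt cells and 11 peaks over 7368 bases in ΔIkE120 cells, or 6.17% and 4.90% of the window, with mean fold enrichments of 2.82 and 3.25. The ratio of 0.794 was below the median of all genes but did not pass 1.5 fold. The window was nevertheless rich in peaks in both genotypes, at the 91.3 percentile of all genes in wt cells and the 87.5 percentile in ΔIkE120 cells by share covered.

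No peak reached the start of *Il2ra* in either list, and the peak nearest to it lay 4.94 kb upstream in wt cells, between genes. It spanned chr2:11636040-11637857 in wt cells, 1818 bases with a −log10 q-value of 16.5, and chr2:11635722-11637937 in ΔIkE120 cells, 2216 bases with a value of 13.7. This upstream peak was the longest of the window and was longer in ΔIkE120 cells. Inside the gene, 6 peaks were called in wt and 4 in ΔIkE120 cells. The peak at chr2:11663481-11664721 covered 1241 bases in wt cells, where the ΔIkE120 peak, chr2:11663570-11664043, covered 474. Peaks in wt cells alone numbered 4 and covered 1075 bases, the highest of them at chr2:11619335-11619637, 23.2 kb upstream, with a −log10 q-value of 4.23. ΔIkE120 cells alone had 1 peak, of 329 bases, inside *Il15ra*.

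*Il15ra*, which encodes the α chain of the interleukin-15 receptor, starts at position 11705172 of chromosome 2, within the *Il2ra* window, and unlike *Il2ra* it had a start peak in both lists. That peak spanned chr2:11705191-11706351 in wt cells and chr2:11705161-11706024 in ΔIkE120 cells, with −log10 q-values of 7.75 and 8.68. The strongest peak of the *Il2ra* window was likewise at the start of another gene, *Rbm17*, which encodes a splicing factor, with −log10 q-values of 19.9 in wt and 22.1 in ΔIkE120 cells.

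*Il2rb* encodes the β chain shared by the receptors for interleukin-2 and interleukin-15, and lies at chr15:78479256-78511621 on the minus strand. Its window held 12 peaks over 6110 bases in wt cells, or 4.62% of it, and 7 peaks over 2599 bases in ΔIkE120 cells, or 1.96%. Mean fold enrichments of these peaks were 2.87 and 3.07. The ratio of 0.425 was the lowest among the 8 genes compared. By share covered, the window stood at the 82.8 percentile of all genes in the wt list and at the 56.0 percentile in the ΔIkE120 list. Of the 12 wt peaks, 6 were called in wt cells alone and covered 3538 bases, and 2 of the 7 ΔIkE120 peaks were called there alone and covered 436 bases.

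At the start of *Il2rb*, 2 weak peaks in wt cells stood against 1 in ΔIkE120 cells. The wt peak inside the gene, chr15:78510206-78511098, 893 bases with a −log10 q-value of 2.12, had no counterpart. The wt peak just upstream of the start, chr15:78511923-78512388, had a −log10 q-value of 2.41, and its ΔIkE120 counterpart, chr15:78511918-78512196, one of 2.93. Within 1 kb of the start, peaks covered 944 bases in wt and 279 bases in ΔIkE120 cells, and neither list had a peak over the start itself. The highest wt peak of the window, chr15:78462799-78463136, lay 48.5 kb downstream of the start inside *Tmprss6*, a gene for a membrane serine protease. Its −log10 q-value was 10.2 in wt cells and 2.76 at the ΔIkE120 peak that overlapped it, at the 79.0 and the 28.7 percentile of the respective lists.

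*Il2rg* encodes the common γ chain, used by the receptors for interleukin-2, interleukin-7 and several other cytokines, and lies at chrX:101264385-101268255 on the minus strand. It had 7 peaks over 7170 bases in wt cells and 8 peaks over 6280 bases in ΔIkE120 cells, or 6.90% and 6.05% of its window, with mean fold enrichments of 3.56 and 3.60. The ratio was 0.876. The extra ΔIkE120 peak came from the start of *Foxo4*, a forkhead transcription factor gene, where the wt peak chrX:101253560-101255399 was met by a pair of shorter peaks.

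The start of *Il2rg* lay under a wt peak, chrX:101267759-101268271, with a −log10 q-value of 8.14, at the 72.8 percentile of its list. In ΔIkE120 cells the overlapping peak, chrX:101267473-101268134, had a value of 2.84, at the 30.2 percentile, and ended 121 bases inside the gene. A further peak upstream of the start, chrX:101268600-101268993 in wt cells, had a value of 1.32, and its ΔIkE120 counterpart, chrX:101268328-101269053, one of 2.06. Peaks within 1 kb of the start therefore covered more bases in ΔIkE120 cells, 1388 against 907. Among the stronger peaks of each list, those whose −log10 q-value reached the list median, the start peak of *Il2rg* was counted in wt cells and not in ΔIkE120 cells.

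*Kit*, the gene of the receptor for stem cell factor, lies at chr5:75574987-75656722 on the plus strand. Just 1 peak occupied its window of 181736 bases in each genotype and covered the start of the gene, at chr5:75574632-75576014 in wt cells and chr5:75574621-75575992 in ΔIkE120 cells. It measured 1383 bases in wt and 1372 in ΔIkE120 cells, with fold enrichments of 3.63 and 4.17 and −log10 q-values of 7.61 and 10.0. The ratio of covered bases, 0.992, was the highest of the 8 genes compared, and 1361 bases were common to both peaks. The start of *Kit* was thus called almost alike in both lists, with no other peak in the window.

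*Flt3*, the gene of the receptor for the FLT3 ligand, lies at chr5:147330741-147400489 on the minus strand and showed the reverse arrangement, with peaks inside the gene and upstream but none at the start. Its window held 11 peaks over 8981 bases in wt cells and 6 peaks over 7408 bases in ΔIkE120 cells, or 5.29% and 4.36% of the window, with mean fold enrichments of 2.77 and 2.99 and a ratio of 0.825. Each of the 6 ΔIkE120 peaks overlapped a wt peak. The other 5 wt peaks were short and weak, covering 1378 bases with −log10 q-values from 1.40 to 3.02.

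The strong *Flt3* peaks had like lengths and values in both lists. Inside the gene they lay at chr5:147339921-147341828, chr5:147358400-147359533 and chr5:147365779-147366711 in wt cells, with −log10 q-values of 6.34, 10.7 and 9.59. The overlapping ΔIkE120 peaks had values of 6.42, 9.63 and 10.4. Upstream, 18.1 kb from the start and between genes, chr5:147418564-147419715 had a value of 10.8 in wt cells and its counterpart 11.7 in ΔIkE120 cells. The highest peak of the window, chr5:147429617-147431193, lay inside *Pan3*, a gene for a subunit of a deadenylase complex, with values of 17.2 and 18.2. The strong peaks around *Flt3* were thus present in both genotypes, away from its start.

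Of the feedback inhibitors, *Cish* is a textbook target of STAT5 and encodes an SH2 domain protein that damps cytokine receptors. It lies at chr9:107296659-107302784 on the plus strand. Its window held 2 peaks over 740 bases in wt cells and 1 peak over 816 bases in ΔIkE120 cells, with mean fold enrichments of 3.99 and 3.90. They lay 41.2 kb or more downstream of the start, inside *Hemk1*, a methyltransferase gene. The wt peaks chr9:107337888-107338283 and chr9:107338457-107338800 were both overlapped by the ΔIkE120 peak chr9:107337938-107338753. With under 1000 bases in each list no call was made, and the ratio was 1.10, while the start and the body of *Cish* had no called H3K27ac in either genotype.

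*Socs1*, which encodes an inhibitor of Janus kinases, contrasted with *Cish*. It lies at chr16:10783808-10785536 on the minus strand, and its window was among the most densely covered, with 13 peaks over 9141 bases in wt cells and 9 peaks over 7655 bases in ΔIkE120 cells. These made up 8.99% and 7.52% of the window, at the 98.0 and 96.7 percentile of all genes, with mean fold enrichments of 2.48 and 2.60 and a ratio of 0.837. All 9 ΔIkE120 peaks overlapped a wt peak, and the 4 peaks of wt cells alone covered 1453 bases with −log10 q-values of at most 2.92.

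A pair of peaks flanked the start of *Socs1* in each list, and the start itself lay between them. The peak over the gene body, chr16:10783914-10785074 in wt and chr16:10783925-10785043 in ΔIkE120 cells, had −log10 q-values of 10.4 and 13.7. The upstream peak, chr16:10785649-10786370 in wt and chr16:10785653-10786360 in ΔIkE120 cells, had values of 8.12 and 8.18. Within 1 kb of the start the peaks covered 1261 bases in wt and 1216 bases in ΔIkE120 cells, so both flanks were called nearly alike. The highest peak of the window, chr16:10834653-10835399, lay 49.1 kb upstream inside *Rmi2*, a genome stability gene whose strand and start were not known here, with values of 14.1 in wt and 22.4 in ΔIkE120 cells.

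The STAT5 genes lie side by side and head to head on chromosome 11, *Stat5b* at chr11:100780731-100859004 on the minus strand and *Stat5a* at chr11:100859351-100885169 on the plus strand. Their gene ends are 346 bases apart, so their windows share 99654 bases and were not independent. The shared stretch held 18 wt and 12 ΔIkE120 peaks. Over the merged window 26 peaks covered 18262 bases in wt cells and 19 peaks covered 15285 bases in ΔIkE120 cells, a ratio of 0.837. No other window of the group held as many peaks.

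For *Stat5a*, 21 peaks covered 14498 bases in wt cells and 15 peaks covered 11572 bases in ΔIkE120 cells, with mean fold enrichments of 2.52 and 2.73 and a ratio of 0.798. They took up 11.5% and 9.20% of the window, at the 99.7 and 98.8 percentile of all genes. For *Stat5b*, 23 peaks covered 16357 bases in wt cells and 16 peaks covered 13483 bases in ΔIkE120 cells, or 9.18% and 7.56% of its window, with mean fold enrichments of 2.62 and 2.72 and a ratio of 0.824. Both genes thus stood near the top of all genes for the share of their window under peaks, in either genotype.

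The start peak counted for both genes was that of *Stat5a*. It spanned chr11:100859856-100861600 in wt cells and chr11:100859792-100861610 in ΔIkE120 cells, with −log10 q-values of 9.14 and 8.62, and began 505 bases inside *Stat5a* in wt and 441 bases inside it in ΔIkE120 cells. From the outer start of *Stat5b* it was 0.852 and 0.788 kb away, on the side of *Stat5a*. With 500 bases to either side in place of 1 kb, *Stat5a* had a start peak in ΔIkE120 cells and not in wt cells, and *Stat5b* had none in either list. The outer start of *Stat5a* is not among the starts that RefSeq lists for it here, 100859656 and 100860484, and the peak covered the latter in both lists.

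The outer start of *Stat5b* is the end of the RefSeq gene and is not among its listed starts either, which lie inside the gene at positions 100850581 and 100822570. A separate peak covered the start at position 100850581. This peak, chr11:100849779-100851187 in wt and chr11:100849830-100851165 in ΔIkE120 cells, was the highest inside either STAT5 gene, with −log10 q-values of 17.2 and 16.5. Over the listed start at position 100822570, a peak was called in wt cells alone, chr11:100822377-100822741, with a value of 2.07. The starts with strong peaks were therefore called in both genotypes, and the difference was at a weak peak.

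Peaks in wt cells alone numbered 6 in the *Stat5a* window and 7 in that of *Stat5b*, with −log10 q-values from 1.62 to 3.19. The highest, chr11:100870667-100871221, lay 11.3 kb inside *Stat5a*. ΔIkE120 cells alone had 1 peak, chr11:100845981-100846359, inside *Stat5b*, with a value of 1.33. Beyond *Stat5a*, inside the neighbouring *Stat3*, a gene for another STAT protein, chr11:100890491-100891872 had a value of 13.0 in wt cells, and the overlapping ΔIkE120 peak chr11:100890717-100891849 one of 17.8. By construction, each wt peak of the STAT5 windows with a value above 3.19 was shared, and several weaker wt peaks were shared as well. Every ΔIkE120 peak of these windows other than the 1 named overlapped a wt peak.

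**Figure D2:**
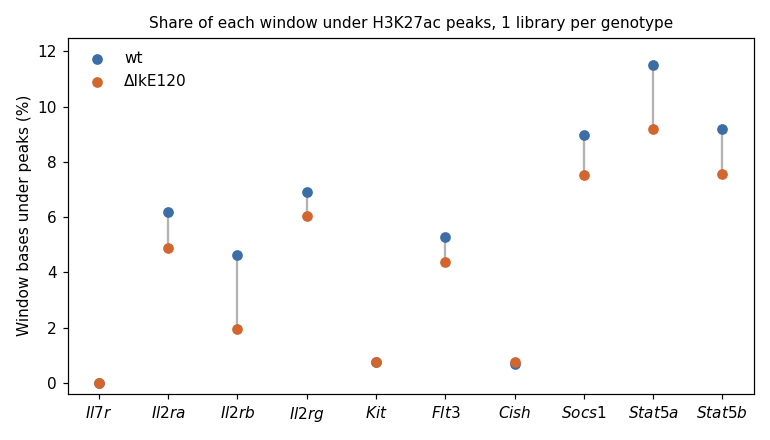
Share of each window under called H3K27ac peaks, in percent, for the 10 genes in wt cells (blue) and ΔIkE120 cells (orange), each point from 1 library. *Stat5a* is highest in both genotypes, at 11.5% and 9.20%, the gap is widest in proportion at *Il2rb*, at 4.62% and 1.96%, and the points of *Kit* nearly coincide.

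Each peak of the windows was also placed by position. At the outer starts of the 10 genes there were 8 peaks in wt and 7 in ΔIkE120 cells, and at starts of other genes 12 and 11. Inside the bodies of the 10 genes there were 25 and 15 peaks, inside other genes 22 and 17, and between genes 19 and 12. The 1 peak at an outer start without a counterpart was the weak peak inside *Il2rb*. Of the wt peaks, a ΔIkE120 peak overlapped 17 of the 20 at any gene start, or 85.0%, against 95.2% of such peaks in the whole wt list. It overlapped 32 of the 47 inside genes, or 68.1%, against 66.5%, and 11 of the 19 between genes, or 57.9%, against 65.0%. For wt peaks, overlap was thus larger at starts both here and in the whole list. Of the ΔIkE120 peaks, a wt peak overlapped 17 of 18 at starts, 29 of 32 inside genes and 12 of 12 between genes, or 94.4%, 90.6% and 100%, against 97.5%, 80.6% and 81.5% in the whole ΔIkE120 list, so the few peaks here did not follow that order.

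Other genes of cytokine signalling gave a similar picture. Of 33 listed genes, 18 had a start peak in wt cells and 18 in ΔIkE120 cells, against 45% and 44.3% of all genes, with 0 in either list alone. All 4 Janus kinase genes, *Jak1*, *Jak2*, *Jak3* and *Tyk2*, had start peaks, as did 4 of 5 further receptor genes and 4 of 5 further STAT genes, *Il21r* and *Stat4* being without. Of the 4 other negative regulators, *Socs3* and *Ptpn2* had start peaks, and of 6 target genes *Pim1*, *Bcl2* and *Bcl6*. Within 1 kb of the *Socs3* start, however, peaks covered only 47 bases in wt and 62 bases in ΔIkE120 cells, against 1648 and 1491 at *Ptpn2*. Of 9 ligand genes, *Flt3l* alone had one. The total of 18 of 33 was not far from the share of all genes, and no difference between these small groups was tested. Among the receptor genes of the 10, *Il7r*, *Il2ra* and *Flt3* had no start peak.

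Of those 33 genes, 25 had at least 1000 covered bases, with a median ratio of 0.839. In ΔIkE120 cells 2 of them were lower by 1.5 fold, near the 8.19% of all genes, and 0 were higher, against 0.879%. The pair is named for its ratios and does not set the list apart. *Stat4*, which encodes the STAT protein of interleukin-12 signalling, had 12 peaks over 6462 bases in wt cells and 6 peaks over 3666 bases in ΔIkE120 cells, a ratio of 0.567. *Tslp*, the gene of thymic stromal lymphopoietin, had 2 peaks in each list, over 1853 and 1052 bases, a ratio of 0.568. Neither gene had a peak at its start.

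The promoters were read from RefSeq sequences of build GRCm38.p6, which hold 250 bases before and 50 bases after each listed start. They matched 9 of the 10 genes, with 12 promoters in all, and *Il2rb* was not among them. STAT5 dimers bind the letters TTCNNNGAA, which read the same on both strands and were searched with no other motif. They were found in 2 of the 12 promoters, those of *Cish* and *Il7r*, and in 8.34% of all 32619 promoters, 6.59% of those with a peak in both lists and 9.28% of those with a peak in neither. *Cish* held the letters 2 times, beginning at the listed start and at base 12 counted from it, and 0.460% of all promoters hold them 2 times or more. A match describes the sequence and says nothing of binding in these cells. The promoters of *Cish*, at chr9:107296409-107296708 on the plus strand, and of *Il7r*, at chr15:9529827-9530126 on the minus strand, are shown because they hold these letters, in capitals, and had 0 bases under peaks in both lists.
Cish: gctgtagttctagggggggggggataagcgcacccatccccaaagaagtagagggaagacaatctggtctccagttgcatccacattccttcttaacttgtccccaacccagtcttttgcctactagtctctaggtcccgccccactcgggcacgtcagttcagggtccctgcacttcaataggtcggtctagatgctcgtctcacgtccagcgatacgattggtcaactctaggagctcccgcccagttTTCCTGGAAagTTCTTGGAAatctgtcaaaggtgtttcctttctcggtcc
Il7r: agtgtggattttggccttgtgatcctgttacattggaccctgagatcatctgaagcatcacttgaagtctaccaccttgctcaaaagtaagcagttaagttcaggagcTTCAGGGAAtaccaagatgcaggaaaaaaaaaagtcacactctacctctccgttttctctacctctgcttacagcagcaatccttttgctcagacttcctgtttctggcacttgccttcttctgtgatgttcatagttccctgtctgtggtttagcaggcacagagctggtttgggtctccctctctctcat

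The promoters also differed in their number of CG dinucleotides. Over all promoters the median was 7, and it was 22 for those with a peak in both lists and 4 for those with a peak in neither. The promoters of *Kit* with 20 and 21, the inner *Stat5a* promoter with 27 and that of *Stat5b* at chr11:100850532-100850831 with 50 lay wholly under peaks in both lists. *Il7r* with 1 and *Il2ra* with 3 had no peak. *Flt3* with 18 and *Cish* with 11 had more CG dinucleotides than the median promoter and yet no peak, while *Il2rg* had 3 and a start peak in both lists. The other *Stat5b* promoter, chr11:100822521-100822820, had 7, with 221 of its bases under a peak in wt cells and 0 in ΔIkE120 cells. The promoters of *Kit*, at chr5:75574737-75575036 on the plus strand, and of *Stat5b*, at chr11:100850532-100850831 on the minus strand, are shown as the CG-rich, fully covered examples, to set beside the uncovered *Cish* and *Il7r*. They hold no capitals, since the letters searched are not in them.
Kit: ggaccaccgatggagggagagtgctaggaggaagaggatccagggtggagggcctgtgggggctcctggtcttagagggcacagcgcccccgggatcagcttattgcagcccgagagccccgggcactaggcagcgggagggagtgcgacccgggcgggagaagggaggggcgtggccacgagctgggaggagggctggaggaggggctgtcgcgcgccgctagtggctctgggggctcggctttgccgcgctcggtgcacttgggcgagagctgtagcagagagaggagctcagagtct
Stat5b: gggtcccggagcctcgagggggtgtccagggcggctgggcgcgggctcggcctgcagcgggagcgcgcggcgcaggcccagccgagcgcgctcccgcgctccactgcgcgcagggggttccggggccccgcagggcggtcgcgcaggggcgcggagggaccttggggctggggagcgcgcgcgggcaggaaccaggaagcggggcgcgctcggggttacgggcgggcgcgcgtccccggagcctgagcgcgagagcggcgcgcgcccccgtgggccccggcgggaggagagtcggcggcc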

How the data were processed

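H3K27ac ChIP-seq of wt and ΔIkE120 P5424 cells was analysed, with 1 library per genotype. For each library the authors deposited broad peaks in a list of 9 columns. The deposited columns give a score, a fold enrichment (a ratio to background), a −log10 p-value and a −log10 q-value for each peak, and the deposited score is 10 times the −log10 q-value. The submitters' processing notes name Bowtie 1.0.0, Bowtie2 2.3.4.3, MACS2 2.1.1, deepTools 3.2.1 and build GRCm38, without stating their roles. Depth was not given in the sources used here.

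Gene extents were taken from RefSeq (GRCm38.p6). Strands came from RefSeq promoters for 17274 genes and from GENCODE by symbol for 3650, *Il2rb* among them. Of 21631 protein-coding genes, 20924 had a strand, and the others served only to place peaks inside genes. The start is the outer 5′ end of the gene. Peaks were counted in a window where they overlapped it by at least 1 base, covered bases were clipped to the window, and mean fold enrichments are over called peaks, weighted by length. Ratios were computed for ΔIkE120 over wt. Percentiles of windows are by the share covered, among 20924 genes, and percentiles of peaks by −log10 q-value within their list. No test was made, since there are no replicates. Alternatives were the peaks of higher q-value, equal numbers of peaks, other widths, flanks, overlaps and folds, and peaks shared or away from other starts. Listed RefSeq starts and a −log10 q-value of at least 2 were added after the data were seen.

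All 10 genes were named. Of the 33 other cytokine signalling genes, those with a start peak in 1 list alone, past 1.5 fold or inside a window were to be named, and the remaining names were chosen after their values were seen. Named peaks lie at a start, are the longest or highest of a window, or are the highest of 1 list alone, and the others were chosen after their values were seen. Genes and lists were chosen with earlier results of these data known. Figures were drawn with matplotlib 3.10.9, and tables were made with pandas 2.3.3, scipy 1.17.1 and numpy 2.4.6 under Python 3.11.15, and the overlap code was tested on simulated data.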

Additional observations from a re-analysis of the deposited data

How the results depend on the processing

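With only the peaks whose −log10 q-value reached the median of their list, the windows held 36 wt and 28 ΔIkE120 peaks, 1 gene (*Il2rg*, whose ΔIkE120 peak is below the median) had a start peak in wt cells alone, and 0 genes were lower by 1.5 fold, as *Il2rb* was left with under 1000 covered bases. That choice keeps fewer peaks by construction. With 500 bases at the start, 1 gene (*Stat5a*) had a start peak in ΔIkE120 cells alone. With a flank of 20 kb the windows held 56 wt and 41 ΔIkE120 peaks, and with 100 kb they held 129 wt and 100 ΔIkE120 peaks. With ratios of 0.8 or less called lower, 3 genes were (*Il2ra*, *Il2rb* and *Stat5a*), against 22.1% of all genes. The other 71 values of the main counts, shares and ratio stayed within 1.5 times or within the binomial interval. The ratio of covered bases over all windows ranged from 0.798 to 0.944, and that of *Il2rb* from 0.387 to 0.666. The ratio of *Cish* was 0 at the median −log10 q-value, where it kept no ΔIkE120 peak, and 52 further ratios of the 9 genes with peaks kept their side of 1.5 fold.

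No paired analysis was possible because each genotype has 1 library. Differences between libraries and between genotypes cannot be told apart, and the part of depth was not tested. Acetylation below the threshold of a list is not seen, since the lists hold no signal outside peaks. Peaks in a window need not act on the gene that it surrounds, and the windows hold 24 other gene starts of known strand.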

Other observations

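The windows of the 10 genes also held the starts of 24 other protein-coding genes of known strand, of which 11 had a start peak in wt cells and 10 in ΔIkE120 cells, with 10 in both, near the 45% and 44.3% of all genes. Around *Il2rg*, which lies among closely spaced genes, the starts of *Snx12*, *Foxo4* and *Med12* had peaks in both genotypes, while *Gm614* and *Nlgn3* had none. Around *Stat5b*, *Rab5c*, *Kcnh4* and *Ghdc* had start peaks in both genotypes and *Hcrt*, the gene of the neuropeptide hypocretin, had none. The protamine genes *Prm1*, *Prm2* and *Prm3* and *Tnp2*, sperm chromatin genes beside *Socs1*, had none in either list, although the *Socs1* window was densely covered.

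The start of *Urad* was the 1 neighbour with a peak in wt cells alone, with 25 bases under a peak with a −log10 q-value of 3.02. At *Sstr3*, a somatostatin receptor gene in the *Il2rb* window, each list had a weak start peak, with −log10 q-values of 2.12 in wt and 1.23 in ΔIkE120 cells, but the peaks did not overlap each other.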
